A study of Homo sapiens with 9 samples.

Results

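Of the targets of the transcription factor p53 that act in cell death, 9 genes are described here: FAS, BAX, BBC3, PMAIP1, AEN, TP53I3, ZMAT3, TRIAP1 and PERP. They were read from all 16 probe sets that the probe-to-gene table assigns to one of these symbols alone, out of 49395 probe sets and 18132 genes on the arrays. The members were chosen by function and by their known changes against control in an earlier analysis of the same arrays, so each knockdown against control is given below as a description, without a p-value for these genes. RNA came from HCCC-9810, a human cholangiocarcinoma (bile duct cancer) cell line, and was hybridised to Affymetrix arrays in 3 groups of 3 samples. The groups received siRNAs against BAP1, a nuclear deubiquitinase (si-BAP1), siRNAs against MBD5, a methyl-CpG-binding domain protein (si-MBD5), or a control RNA that the sample titles call si-Control and the treatment field calls shRNA. The labels give no dose or time after transfection, all 9 samples are of 1 cell line, and the replicates are called biological without saying whether they were separate cultures, so the p-values cover the spread among these arrays, which may be technical.

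p53 is a stress-activated transcription factor that switches on genes of cell cycle arrest, DNA repair and death. Its death targets act at several points: FAS is a receptor at the cell surface, BBC3 (PUMA) and PMAIP1 (NOXA) neutralise the BCL2-type survival proteins, and BAX opens the outer mitochondrial membrane. AEN is a nuclease, TP53I3 (PIG3) a quinone oxidoreductase tied to oxidative stress, and ZMAT3 an RNA-binding zinc finger protein. TRIAP1 works the other way, as an inhibitor of apoptosis, and PERP is a membrane protein of desmosomes as well as a death effector.

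FAS and AEN are shown with the stretch upstream of an annotated start because a p53 site was found there, and BAX because its stretch holds repeats of a different motif. Sequences are from RefSeq on GRCh38.p14, the 250 bases before the start, written 5′ to 3′ on the strand of the gene. Capitals mark 2 abutting p53 half-sites in FAS and AEN and each CACGTG in BAX.
FAS, chr10:88991181-88991430, plus strand, the stretch before the most downstream of 3 annotated starts: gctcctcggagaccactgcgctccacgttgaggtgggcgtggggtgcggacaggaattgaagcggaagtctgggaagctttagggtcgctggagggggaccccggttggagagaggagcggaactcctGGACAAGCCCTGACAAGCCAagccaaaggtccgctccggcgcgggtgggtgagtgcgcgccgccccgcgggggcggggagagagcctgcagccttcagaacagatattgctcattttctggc
AEN, chr15:88621090-88621339, plus strand: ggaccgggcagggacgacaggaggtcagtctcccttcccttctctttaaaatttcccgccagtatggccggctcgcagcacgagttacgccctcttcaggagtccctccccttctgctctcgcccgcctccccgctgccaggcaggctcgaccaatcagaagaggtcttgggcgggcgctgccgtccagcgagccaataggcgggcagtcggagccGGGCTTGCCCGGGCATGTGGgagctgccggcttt
BAX, chr19:48954625-48954874, plus strand: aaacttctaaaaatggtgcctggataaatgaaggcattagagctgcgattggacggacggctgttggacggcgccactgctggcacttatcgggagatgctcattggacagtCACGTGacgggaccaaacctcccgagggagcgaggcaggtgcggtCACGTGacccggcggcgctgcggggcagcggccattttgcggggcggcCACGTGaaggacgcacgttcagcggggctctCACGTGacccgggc

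All 9 genes matched the promoter table, with 12 annotated starts between them (FAS 3, ZMAT3 2, the others 1 each). A full match to the p53 half-site, a motif of 10 letters that reads the same on both strands, was present in 2 of the 12 stretches, and in 5.57% of all 35116 promoters of that length. In FAS the match began 122 bases before the start, and in AEN 34 bases before it. In both genes a second, imperfect half-site followed without a gap. A search chosen after these sequences were seen, for 2 abutting half-sites with at most 2 of 20 letters off and the core C and G letters intact, found the same 2 stretches and 0.242% of all promoters. CACGTG, which is its own reverse complement, occurred 4 times in the BAX stretch and 1 time in that of BBC3, and in 6.34% of all promoters. GGGCGG, searched on both strands, was in 9 of the 12 stretches (42.6% of all), and CCAAT, also on both strands, in 4 of 12 (32% of all). These are matches of letters in a short window and show no binding.

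Series-wide, array medians lay between 36.9 and 38.2, and arrays of a group correlated at 0.998 to 0.999. KRT7, a keratin of bile duct epithelium, was bright (1118 in control), but KRT19 (20.6) and EPCAM (7.90), also markers of that epithelium, were at or below the intensity of 25.5 used as a lower limit for testing. Some markers of other cell types were near the bottom of the scale: the leukocyte gene PTPRC read at most 4.68 and the fibroblast gene LUM at most 2.69 on any array. Each list also had 2 or 3 members above that limit. In control CD68 (leukocyte) read 64.7, PDGFRB (fibroblast) 53.9, VWF (endothelial) 43.9 and APOA1 (hepatocyte) 43.6, all above the bile duct marker SOX9 at 39.0. PDGFRB was higher in si-BAP1 and si-MBD5 than in control (log2 0.16 and 0.24, limma adjusted p = 0.0406 and 0.00629). The summed intensity of hepatocyte, endothelial and leukocyte markers overlapped between control and both knockdowns. That of the 5 fibroblast markers was 105 to 115 in control, 124 to 131 in si-BAP1 and 117 to 129 in si-MBD5 arrays, with 2 of 5 above the limit; that of the 4 measured bile duct markers was 1136 to 1219, 1034 to 1121 and 999 to 1086. Signal from the 3' end of ACTB over its 5' end, which reports on RNA quality, was 10.8 to 11.4 in si-BAP1, 11.8 to 12.8 in control and 11.6 to 13.0 in si-MBD5 arrays. The same ratio for GAPDH was near even and overlapped between groups. It was 1.07 to 1.092 in si-BAP1, 1.032 to 1.084 in control and 1.066 to 1.074 in si-MBD5 arrays. The part of these differences in the results below was not tested. The brighter MBD5 probe set read 6.17 ± 0.057 in si-MBD5 against 7.04 ± 0.13 in control (SD, n = 3), too dim for the knockdown to be judged (log2 fold change -0.055, SE 0.027); BAP1 was not analysed here.

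FAS, which receives the death signal of FAS ligand, changed most. Its brighter probe set read 85.8, 88.1 and 94.8 in the 3 control arrays, 40.2, 48.9 and 37.2 in si-BAP1 and 38.6, 45.7 and 42.4 in si-MBD5. Every knockdown array lay far below every control array, while the si-BAP1 and si-MBD5 arrays interleaved. Group means were 89.5 ± 4.7 (SD, n = 3), 42.1 ± 6.0 and 42.2 ± 3.6, which gives a log2 fold change against control of -0.87 (SE 0.072) in si-BAP1 and -0.86 (SE 0.072) in si-MBD5. Each fold change compares the groups on the scale of log2(intensity + 16), which shrinks the change of dim genes: the plain ratios of mean intensity were 0.470 and 0.472, and with 64 in place of 16 the si-BAP1 and si-MBD5 values were -0.53 and -0.53. The second FAS probe set read 54.3, 60.1 and 67.5 in control, 29.8, 25.9 and 29.4 in si-BAP1 and 23.8, 27.3 and 25.0 in si-MBD5, with fold changes of -0.79 and -0.89 (SE 0.065 each). The 2 probe sets thus gave the same direction and a similar size. These are bulk samples, so fewer cells of a kind and less RNA per cell cannot be told apart.

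**Figure D1:**
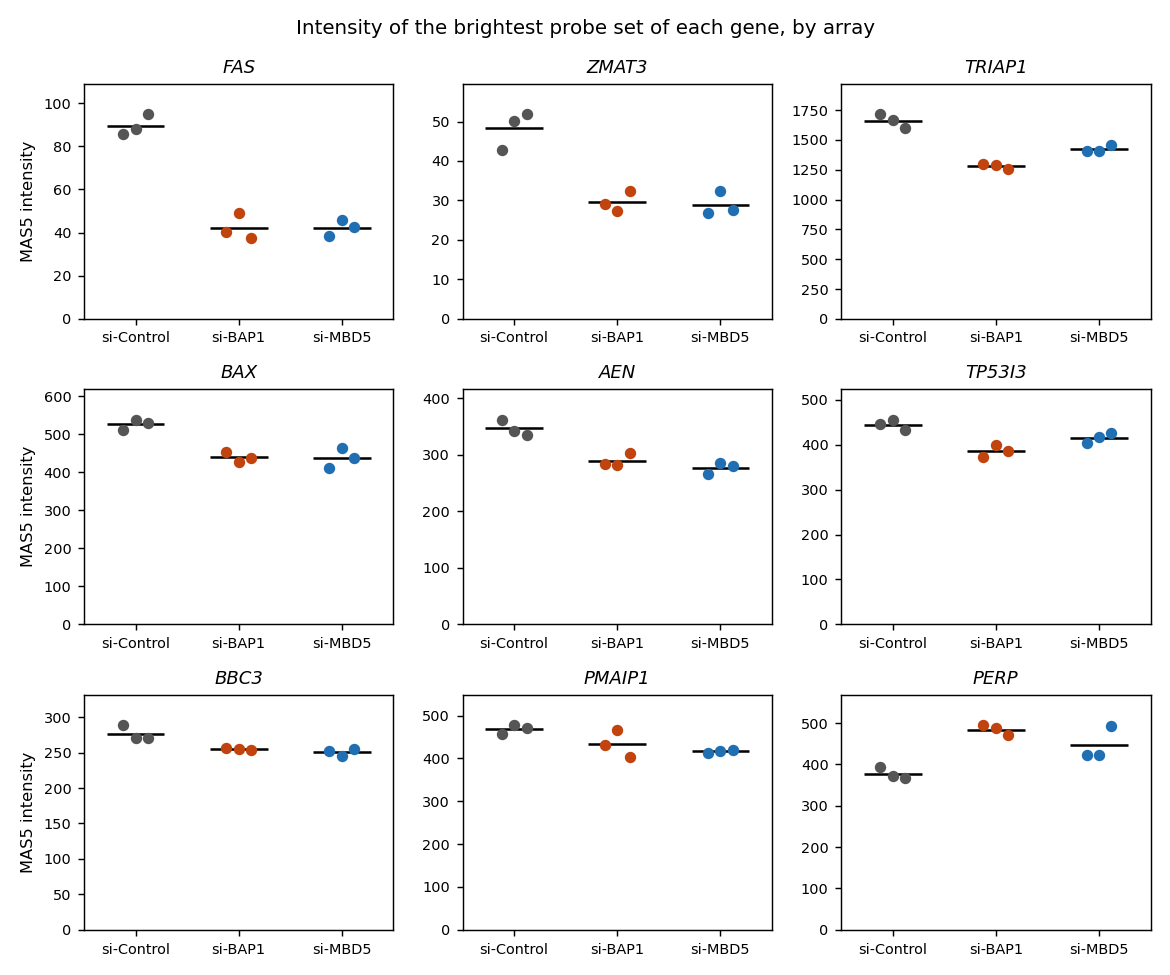
MAS5 intensity (linear axis from 0) of the brightest probe set of each of the 9 genes; each point is 1 array, and the bar is the mean of the 3 arrays of si-Control, si-BAP1 or si-MBD5. In FAS, ZMAT3, TRIAP1, BAX, AEN, TP53I3 and BBC3 the points of both knockdowns lie below those of control, and in PERP above them; in PMAIP1 1 si-BAP1 array (467) lies among the control arrays.

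Of the BCL2 family members, BAX, the pore former, was lower in both knockdowns. Its brighter probe set read 512, 538 and 529 in control, 454, 426 and 436 in si-BAP1 and 411, 465 and 436 in si-MBD5. The groups did not overlap with control, and the knockdowns overlapped each other. Log2 fold changes were -0.25 and -0.26 (SE 0.046), or -16.1% and -16.4% in intensity + 16. The dimmer BAX probe set gave -0.26 and -0.27 (SE 0.055), from 150 ± 4.9 in control to 122 ± 8.8 and 122 ± 6.3 (SD, n = 3).

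The BH3-only genes BBC3 and PMAIP1, which act upstream of BAX, moved little. The brighter BBC3 probe set read 288, 271 and 269.8 in control, 257, 256 and 253 in si-BAP1 and 252, 246 and 256 in si-MBD5. All 6 knockdown arrays were below all 3 control arrays, by a small margin (log2 -0.11 and -0.13, SE 0.040). On the dimmer BBC3 probe set the groups overlapped: 72.7, 56.7 and 54.1 in control against 56.0, 56.0 and 55.0 in si-BAP1 and 52.3, 57.5 and 57.5 in si-MBD5, so that 1 control array stood apart. PMAIP1 read 457, 477 and 470.2 in control, 432, 467 and 402 in si-BAP1 and 411, 417 and 420.1 in si-MBD5. Only the si-MBD5 arrays lay wholly below control, since the second si-BAP1 array lay within the control range. Its fold changes were -0.11 and -0.16 (SE 0.048), and on the dimmer PMAIP1 probe set -0.14 and -0.12 (SE 0.065), where both knockdowns overlapped control.

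AEN, the nuclease, read 362, 342 and 336 in control, 283, 281 and 304 in si-BAP1 and 265, 285 and 279 in si-MBD5. Neither knockdown overlapped control (log2 -0.25 and -0.31, SE 0.046). ZMAT3, the RNA-binding protein, read 42.8, 50.1 and 51.8 in control, 29.0, 27.3 and 32.3 in si-BAP1 and 26.8, 32.3 and 27.5 in si-MBD5. Its log2 fold changes were -0.49 and -0.52 (SE 0.068), on a dim probe set brighter than only 48.6% of the array. These were second to FAS in size, but with 64 in place of 16 they were -0.26 and -0.27, and in si-BAP1 TRIAP1 (-0.36) and PERP (0.31) then changed more. The other ZMAT3 probe set was below the limit for testing and overlapped in all groups, at 23.1 ± 2.8 in control, 20.4 ± 1.6 in si-BAP1 and 21.0 ± 0.57 in si-MBD5 (SD, n = 3).

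TP53I3, the oxidoreductase, read 446, 456 and 433 in control, 373, 399 and 386 in si-BAP1 and 403, 416 and 427 in si-MBD5. The 3 groups did not overlap, with si-MBD5 between the other two. The fold changes were -0.20 in si-BAP1 and -0.094 in si-MBD5 (SE 0.041). TRIAP1, the apoptosis inhibitor and the brightest probe set of the 16, read 1715, 1669.8 and 1597 in control, 1297, 1291 and 1261 in si-BAP1 and 1410.0, 1404 and 1461 in si-MBD5. Its groups lay in the same order without overlap, at log2 -0.37 in si-BAP1 and -0.22 in si-MBD5 (SE 0.034). TRIAP1, whose product protects cells, was thus on the same side of control as most of the genes whose products kill them.

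PERP went the other way on all 3 of its probe sets. The brightest read 394, 371 and 367 in control, 494, 488 and 469.9 in si-BAP1 and 424, 423 and 493 in si-MBD5. Each knockdown array was above each control array, and the third si-MBD5 array stood apart from the other two at the level of si-BAP1. Fold changes were 0.35 in si-BAP1 and 0.23 in si-MBD5 (SE 0.055), and 0.28 to 0.32 and 0.20 to 0.22 on the other 2 probe sets. The dimmest PERP probe set gave 34.8 ± 3.2 in control, 45.4 ± 2.1 in si-BAP1 and 43.1 ± 2.5 in si-MBD5 (SD, n = 3).

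Over the 9 genes, the median log2 fold change was -0.25 in si-BAP1 and -0.22 in si-MBD5, while the median over all 12434 genes tested was 4.7e-04 and 8.5e-05. With a limma adjusted p under 0.05 as the rule, 6 of the 9 fell and PERP rose in si-BAP1; TP53I3 was among the 6, and BBC3 and PMAIP1 were not called. The background is 11.1% of all genes called lower and 12.4% higher. In si-MBD5, 7 fell and PERP rose, and TP53I3 was not called; here 8.99% of all genes were called lower and 7.29% higher. Of the 7, BBC3 and PMAIP1 were called with the least margin and kept the call in 5 and 10 of 18 alternative settings; leaving out any single array ended the BBC3 call. Of the 15 probe sets above the limit, 9 lay wholly below control in si-BAP1 and 3 wholly above, where 15.1% and 20.5% of all such probe sets did. In si-MBD5 the counts were 10 and 3, against 14.5% and 13.3% of all probe sets. Because these contrasts guided the choice of the genes, the calls and counts above are descriptions and no test of the 9 genes. Nothing is read from them or from how often a call was kept. Both comparisons use the same 3 control arrays.

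**Figure D2:**
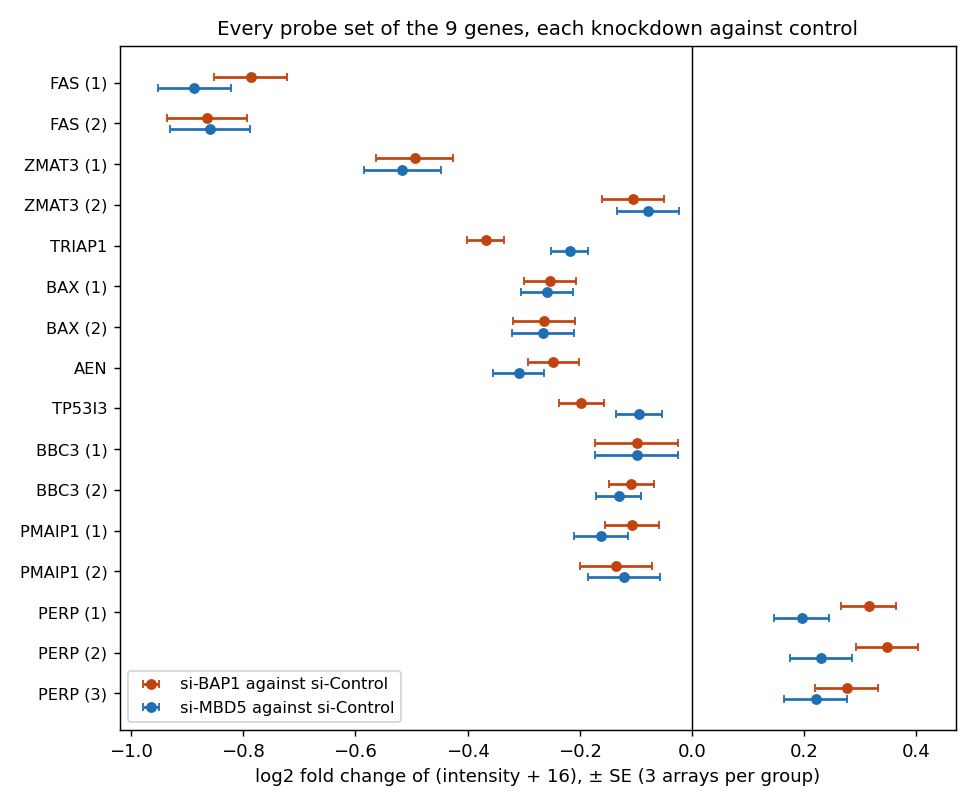
Log2 fold change of (intensity + 16) against si-Control for each of the 16 probe sets, with the standard error of the fit as bars (3 arrays per group); numbers in brackets count the probe sets of a gene. The 2 FAS probe sets lie at -0.79 to -0.89, the 3 PERP probe sets lie above 0, and of the 2 ZMAT3 probe sets the one below the limit for testing lies near -0.1.

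The knockdowns were then set against each other, a contrast that leaves out the control group means, though it rests on the same 6 knockdown arrays. Of the 9 genes 1 passed, where 9.97% of all genes did: TRIAP1 was lower in si-BAP1 than in si-MBD5, at 1283 ± 19 against 1425 ± 32 (SD, n = 3; log2 -0.15, SE 0.034, limma adjusted p = 0.0124), with the 3 si-BAP1 arrays below the 3 si-MBD5 arrays. That call was lost without si-BAP1 replicate 3 (log2 -0.14, adjusted p = 0.0608), and over the alternatives its adjusted p ran from 0.00762 to 0.0608. TP53I3 was also wholly lower in si-BAP1 but did not pass (log2 -0.10, SE 0.041, adjusted p = 0.14). PERP differed by 0.12 (SE 0.055, 95% interval -0.0033 to 0.24, adjusted p = 0.231), and without si-MBD5 replicate 3, its high array, by 0.19 (adjusted p = 0.0173).

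For the other members the intervals bound what the arrays could have shown. FAS differed by -0.0064 (95% interval -0.16 to 0.15) on its brighter probe set and by 0.10 (-0.040 to 0.24) on the other. BAX differed by 0.0057 (-0.094 to 0.11), BBC3 by 0.022 (-0.064 to 0.11) and ZMAT3 by 0.022 (-0.13 to 0.17). PMAIP1 differed by 0.055 (-0.049 to 0.16) and AEN by 0.062 (-0.037 to 0.16). A gap as large as the change of FAS against control lies outside the intervals of its probe sets. A gap of about the size and direction of TRIAP1 lies inside the interval of the brighter FAS probe set, but outside the other. The intervals of ZMAT3, PMAIP1 and AEN leave out a gap of that size lower in si-BAP1, but admit one of that size higher in si-BAP1. None of the 6 further probe sets of these genes above the limit passed either (limma adjusted p 0.175 to 0.998), where 7.69% of all probe sets did; by unadjusted p, 1 of the 6, a PERP probe set, was under 0.05.

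**Figure D3:**
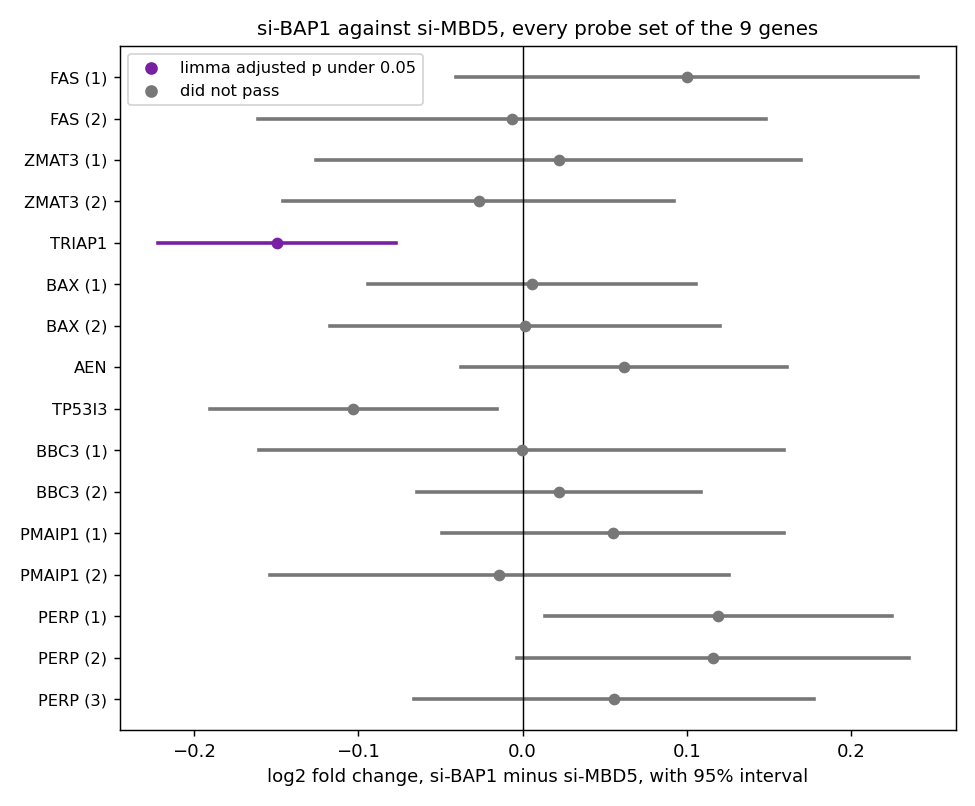
Difference between si-BAP1 and si-MBD5 (log2 scale, x axis) for each of the 16 probe sets, with its 95% interval from the limma fit of 9 arrays. TRIAP1 at -0.15 is the only point past an adjusted p of 0.05; the intervals of TP53I3 and of 1 PERP probe set also leave out 0 before adjustment.

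Other p53 targets were read from a list of 44, of which 40 were tested. In si-BAP1, 19 fell, 1 rose and 20 did not pass (median log2 -0.17); in si-MBD5, 22 fell, 1 rose and 17 did not pass (median -0.17). The share that fell was 47.5% and 55%, beside the 11.1% and 8.99% over all genes. This list was also chosen with earlier results of these data known. Its shares and the p-values below therefore describe the arrays and are no independent test. GDF15, a stress cytokine, had the largest change (1631 ± 86 in control, 648 ± 31 in si-BAP1 and 694 ± 47 in si-MBD5), followed by CDKN1A, which halts the cell cycle (log2 -1.03 and -1.02, SE 0.040, limma adjusted p = 6.2e-09 and 2.2e-08). SESN1, a stress-induced brake on growth signalling, fell by 0.55 and 0.75 on the log2 scale. The repair genes DDB2 and GADD45A fell as well, DDB2 by 0.45 and 0.46 and GADD45A by 0.47 and 0.68. MDM2, the ligase that degrades p53 and is itself a target, read 157 ± 14 in control, 136 ± 11 in si-BAP1 (log2 -0.18, adjusted p = 0.15) and 127 ± 18 in si-MBD5 (log2 -0.28, adjusted p = 0.0411).

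Between the knockdowns, 2 of the 40 were lower in si-BAP1 and 7 higher, beside 4.21% and 5.76% of all genes. CMBL, a hydrolase, accounted for the largest gap (1522 ± 82 in si-BAP1 and 1971 ± 43 in si-MBD5; log2 -0.37, SE 0.037, limma adjusted p = 3.3e-05), and DRAM1, a lysosomal protein of autophagy, was lower in si-BAP1 by 0.30 (SE 0.063, adjusted p = 0.00848). ANKRA2, an ankyrin repeat protein (log2 0.31), GADD45A (0.21) and PRKAB1, a subunit of the energy sensor AMPK (0.21), were higher in si-BAP1 than in si-MBD5.

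Partners of the 9 genes in the death pathways, and regulators of p53, were counted in the same way. Their lists were likewise chosen with earlier results known, so these values are descriptions too. Of 13 tested death receptor genes, 5 fell and 0 rose in each knockdown (median log2 -0.11 and -0.10), beside 11.1% lower and 12.4% higher over all genes in si-BAP1 and 8.99% and 7.29% in si-MBD5. TNFRSF10B, a receptor for the ligand TRAIL and a p53 target too, fell from 1249 ± 20 to 1028 ± 15 in si-BAP1 and 975 ± 17 in si-MBD5. TNFRSF21 fell by 0.88 on the log2 scale in si-BAP1 and by 0.35 in si-MBD5, a gap that passed its own test (log2 -0.54, SE 0.055, limma adjusted p = 4.2e-05); it read 209 on each si-MBD5 array, to the last digit given, so its own spread there is 0. The decoy receptor TNFRSF10D fell by 0.29 and 0.37. FADD, the adaptor of FAS, read 628 ± 14, 647 ± 18 and 638 ± 34 in control, si-BAP1 and si-MBD5 (SD, n = 3), and the initiator caspase CASP8 read 97.0 ± 1.4, 93.9 ± 7.2 and 92.0 ± 8.9; neither passed (adjusted p 0.535 to 0.792).

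Of 26 tested genes of the BCL2 family and the mitochondrial route, 6 fell and 2 rose in si-BAP1 (median log2 -0.045), and 6 fell and 1 rose in si-MBD5 (median -0.018), beside the same shares of all genes; the counts that rose are no higher than those shares would give. MCL1, a survival protein that PMAIP1 binds, fell by 0.24 in si-BAP1 and by 0.36 in si-MBD5 on the log2 scale. The initiator caspase CASP9 rose in si-BAP1 (253 ± 8.7 against 188 ± 7.6; log2 0.40, limma adjusted p = 2.4e-05), and BIRC5, survivin, rose in si-MBD5 (983 ± 32 against 795 ± 7.7; log2 0.30, adjusted p = 6.5e-05). BAK1, the sister pore former of BAX, fell by 0.24 in si-MBD5 and had log2 -0.13 in si-BAP1 (adjusted p = 0.0791). Among 19 tested regulators of p53, 1 fell and 4 rose in si-BAP1 and 1 fell and 1 rose in si-MBD5. Over all genes, 11.1% and 8.99% were called lower, and 12.4% and 7.29% higher. All of these counts are small and lie near what such shares would give among 19 genes. Whether the 4 that rose in si-BAP1 exceed it was not tested. The 1 fall was HIPK2, a kinase that activates p53, in both (log2 -0.56 and -0.23). CHEK1, a checkpoint kinase, rose in both (596 ± 13 and 587 ± 9.8 against 526 ± 20.5). RCHY1 (log2 0.29), ATM (0.27) and CDKN2A (0.13) were called higher in si-BAP1 alone.

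**Figure D4:**
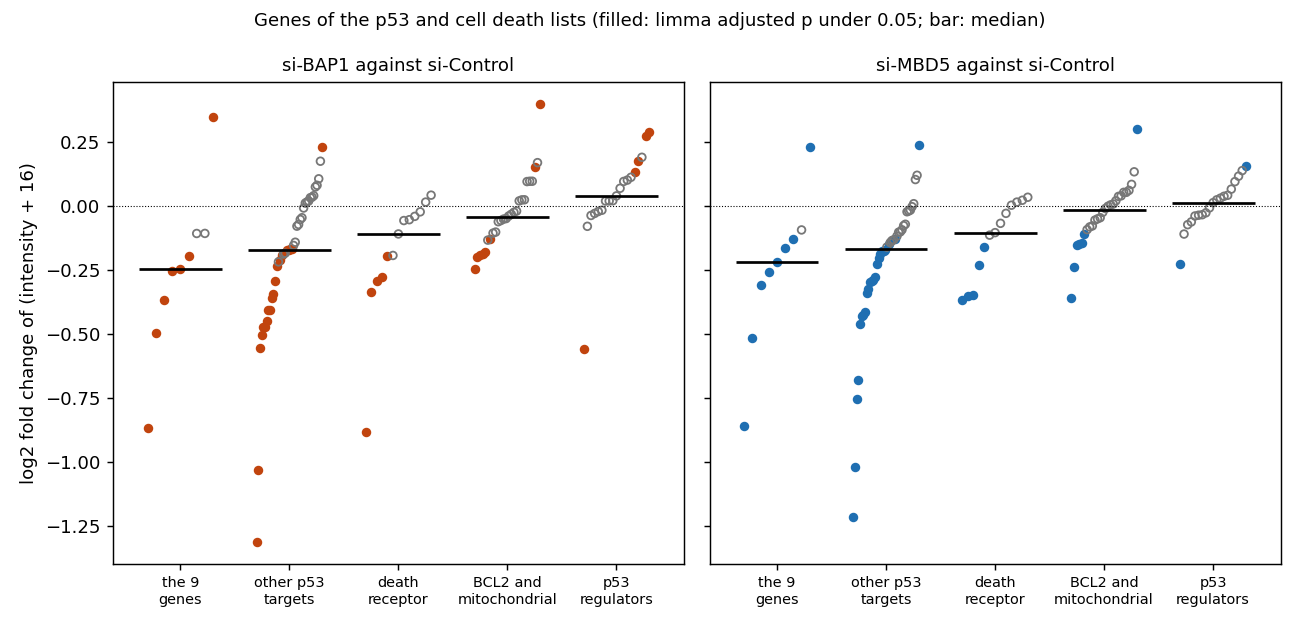
Log2 fold change of (intensity + 16) against si-Control for the 9 genes and 4 lists of related genes, in si-BAP1 (left) and si-MBD5 (right); each circle is a gene, filled where the limma adjusted p was under 0.05, and the bar is the list's median. Medians lie at -0.25 and -0.22 for the 9 genes and at -0.17 for the 40 other p53 targets in both panels, with PERP as the high point among the 9.

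The profile of FAS, the member with the largest change, was compared with all other 12433 genes by the root mean square difference of log2(intensity + 16), each gene set to its control mean, over the 9 arrays. The nearest were STMN3, a stathmin (0.148), RAB8B, a small GTPase (0.157), CDKN1A (0.17), ITGA2, an integrin subunit (0.175), and SQOR, a mitochondrial sulfide oxidoreductase (0.184). Of the other 8 members ZMAT3 was closest to FAS, at rank 36, and PERP farthest, at rank 12158. The measure describes these arrays and depends on the size of a change as well as its direction. With each gene set to its control mean, it largely reflects the change against control that guided the choice of the members. Their ranks are therefore descriptions and no test.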

How the data were processed

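RNA of 9 samples (3 per group) was measured on Affymetrix arrays. The deposited intensity values, 1 per probe set and array on a linear scale, were made with MAS5, per the submitters' processing notes; its version and the scaling between arrays are not given in the sources used here. Of the deposited values, 46.1% occur more than once. Of 49395 probe sets, 102 were controls, 44988 had 1 gene symbol, 1832 several and 2473 none; 44961 symbols were updated through a RefSeq gene table and 27 kept.

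Here 16 was added, log2 taken, probe sets with 1 symbol and a mean above the 40th percentile (25.5) kept, and each gene read from its brightest probe set (12434 genes). limma 3.58.1 (R 4.3.3) fitted 3 group means to all 9 arrays (6 residual degrees of freedom) with an intensity trend; p-values were Benjamini-Hochberg adjusted over all genes, threshold 0.05. A second fit over 29584 probe sets above the limit gave the further probe sets, and a fit without the limit gave those below it. The number of arrays limits the precision; the median SD within groups was 0.061 log2. The procedure was tested on simulated data. The members, lists and naming rule (the members, MDM2, up to 5 largest calls per list and comparison, the 5 profiles nearest FAS) were chosen with earlier results of these data known; FADD, CASP8 and further values of genes called in only 1 comparison were named after their values were seen. Alternatives were constants of 1 and 64, quantile normalization, other filters, averaging the probe sets of a gene, dropping those whose ID ends in _x_at or _s_at, a replicate block, no trend and leaving out each array. Figures used matplotlib 3.10.9 (Python 3.11.15).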

Additional observations from a re-analysis of the deposited data

Results flagged for a closer look

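By a test of the difference itself, 1 of the 9 members differed between the knockdowns, where 9.97% of all genes did. The count is thus near that share. The member was TRIAP1, at log2 -0.15 for si-BAP1 minus si-MBD5 (limma adjusted p = 0.0124, lower in 3 of 3 si-BAP1 arrays). Without si-BAP1 replicate 3 its limma adjusted p was 0.0608.

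The same contrast also passed for related genes, of which at most the 5 with the largest difference in each list are given here, as si-BAP1 minus si-MBD5 on the log2 scale with a limma adjusted p under the threshold. Over all genes, 4.21% were called lower in si-BAP1 than in si-MBD5 and 5.76% higher. Of 40 tested other p53 targets 9 passed, and the 5 were CMBL at -0.37, DRAM1 at -0.30, ANKRA2 at 0.31, GADD45A at 0.21 and PRKAB1 at 0.21. Of 19 tested p53 regulators 1 was lower, HIPK2 at -0.33, and 1 higher, the cell cycle inhibitor gene CDKN2A at 0.11. These regulator counts are near the shares over all genes. Of 26 tested genes of the BCL2 family and the mitochondrial route, 2 were lower and 5 higher. Some of these 7 are survival genes, and 5 are given. BIRC5 stood at -0.35, CASP9 at 0.34, CASP2 at 0.25, cytochrome c (CYCS) at -0.20 and BCL2L2 at 0.15. Of 13 tested death receptor genes 2 were lower and 0 higher, the receptors TNFRSF21 at -0.54 and TNFRSF1A at -0.18.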

How the results depend on the processing

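The median change of the 9 genes against control kept its sign under every alternative run, from -0.26 to -0.20 in si-BAP1 and from -0.25 to -0.16 in si-MBD5. The size for dim genes follows the added constant: FAS in si-BAP1 was -1.08 with a constant of 1 and -0.53 with 64, and ZMAT3 -0.69 and -0.26. The count of members that differed between the knockdowns was 0 without _x_at and _s_at probe sets, a setting that removes TRIAP1's only probe set, and 0 to 2 when single arrays were left out. Other p53 targets lower in si-BAP1 than in si-MBD5 numbered 1 without those probe sets. Leaving out arrays gave 1266 to 1972 genes called in si-MBD5 against control (2025 with all arrays; lowest without si-Control replicate 2) and 721 to 1328 between the knockdowns (1240 with all; 721 without si-MBD5 replicate 1, 759 without si-BAP1 replicate 3). Calls of the 9 genes against control are descriptions here too. The PMAIP1 call in si-BAP1 appeared without si-BAP1 replicate 2, and the PERP call in si-MBD5 ended without si-Control replicate 2. The causes were not tested. Same-numbered samples deviated together no more often than other pairs (correlations -0.433 to 0.48 over 9 pairs, 3 above 0.1). Other pairs gave -0.556 to 0.47 (18 pairs, 6 above 0.1). Across the numbers, si-BAP1 1, si-Control 1 and si-MBD5 3 correlated with each other at 0.337 to 0.47. For si-BAP1 2, si-Control 3 and si-MBD5 2 the correlations were 0.305 to 0.48. The main fit does not model such shared deviations, and their cause was not tested. So few arrays cannot exclude that the numbers pair the samples. With the replicate block 2851, 1866 and 1115 genes passed in the 3 comparisons, and 1 member passed between the knockdowns.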
